A study of Mus musculus with 32 samples.

Results

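The liver of E2f1 knockout mice was examined 20 h after lipopolysaccharide (LPS), against knockout mice that had been given saline. The arrays were put into groups by their titles, and the comparison was chosen with earlier results of these data known. There were 6 knockout mice at 20 h of LPS and 6 knockout mice on saline. These were 12 of the 32 mice of the series, with 1 array per mouse. The knockout mice have the genotype E2F1-/- and a strain label that begins with B6, so by label both groups carry the E2f1 deletion and differ in what was injected; saline livers were also taken at 20 h. Alongside them stand wild-type mice (strain label B6x126 F2, genotype E2F1+/+) on saline (6 mice) and at 20 h of LPS (6 mice), and 4 knockout mice at 6 h of LPS. LPS or saline was given systemically. Dose, sex, age and the deleted part of E2f1 are not given in the sources used here, and since the strain labels of the genotypes differ, genotype and strain cannot be told apart.

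LPS, from the outer membrane of Gram-negative bacteria, is bound by CD14 and sensed by Toll-like receptor 4, which switches on NF-kB and interferon regulatory factors. Kupffer cells and sinusoidal endothelium, the resident macrophages and the vessel lining of the liver, meet it first and release TNF, IL-1, IL-6 and chemokines. Hepatocytes answer IL-6 through STAT3 with acute-phase proteins, and in endotoxaemia they are known to lower bile acid transport, drug metabolism and other differentiated functions. E2F1 is best known as a transcription factor of genes for entry into S phase and has also been linked to NF-kB target genes; all mice of the main comparison carry the knockout genotype by label.

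RNA was read on 1-colour Agilent mouse arrays. A level is the log2 signal of a gene's probe, scaled within each array so that 0 is the array's 75th percentile; a change is a difference of such levels on the log2 scale, with the moderated standard error (SE) of limma. Genes with a Benjamini-Hochberg adjusted p under 0.05, over all 19198 gene names tested, were called, and every adjusted p comes from limma. On the 12 knockout arrays the 75th percentile of the signal ranged from 282 to 842 and 21605 to 28366 spots stood well above background; the number of arrays limits the precision. The extraction text of the labels speaks of lung, so the tissue was checked: the mean level of 16 genes that define hepatocytes was 6.82 to 8.16 on all 12 arrays, and that of 6 measured lung epithelial genes −2.75 to −0.14, highest in saline library 1. Of the 6 lung genes 2 rose at 20 h, Sftpa1 by 1.70 ± 0.58, while the alveolar markers Sftpb, Sftpc and Ager were not among the genes tested. The E2f1 probe read −4.55 to −2.40 in knockout saline livers and −4.04 to −0.23 at 20 h (change 1.18 ± 0.56 SE, adjusted p = 0.117; 1.58, adjusted p = 0.0334, without LPS mouse 6). In wild type E2f1 read −5.05 to −2.30 on saline and −6.21 to −4.03 in the 5 LPS mice measured, so the ranges of the genotypes overlapped; since the deleted part is not known here, this signal does not check the genotype. Whether fewer cells of a type or less RNA per cell lies behind a lower level cannot be told apart in whole liver, and this holds for every cell marker below. Nothing in the labels says more about how replicates were raised than that each is a mouse.

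Some libraries stood apart from their groups. On the first 2 principal components, which hold 35.2% and 18.7% of the variance over all arrays, the library labelled knockout saline 1 lay at 62.5 and −76.7, among the arrays of 6 h LPS, while the other 5 knockout saline mice lay between −98.9 and −84.8 on the first. Its mean level of 30 neutrophil genes was 0.74, against −4.39 to −4.04 in the other 5, and that of 32 interferon-stimulated genes 4.68, against −0.39 to 0.23. A knockout library labelled 6 h of LPS, number 1, stood near the saline arrays instead (−77.8 and −8.1). Both were hybridised on the same slide, and what sets them apart was not tested. Among the LPS mice at 20 h, mouse 4 (−42.4 and 13.5) lay between saline and the other 5, and mouse 6 (100.1 and −1.56) lay apart from the remaining 4 along the second component. Counts are given with all 12 arrays and, where they differ, without saline library 1. Changes of single genes are with all arrays unless said otherwise. Of the 128 single genes followed, 119 were called with all arrays, and all 119 were called in the same direction without that library, 61 of the 63 that rose with a larger change. The naming rule took large changes among called genes, some only if called in both fits, so this agreement was in part set by the choice. Over all gene names, 4742 of the 5055 called with all arrays were also called without that library.

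**Figure D1:**
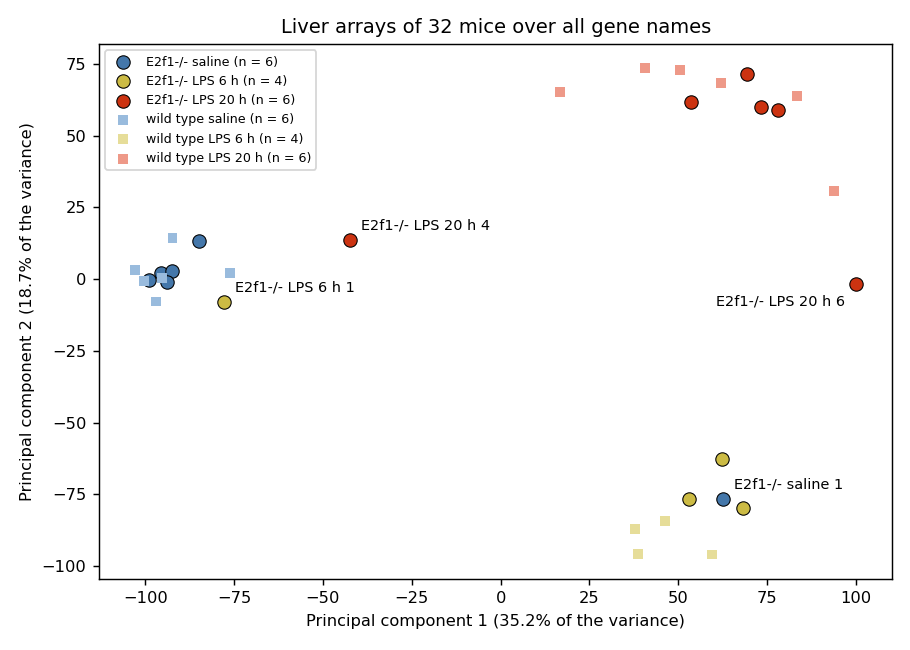
The first principal component (x axis, arbitrary units, 35.2% of the variance) against the second (y axis, 18.7%) for all 32 arrays, coloured by group, with the 4 knockout libraries named in the text labelled. Knockout saline 1 sits with the 6 h arrays at 62.5, knockout 6 h mouse 1 with the saline arrays at −77.8, and knockout 20 h mouse 4 at −42.4, left of the other 20 h mice.

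With all 12 arrays, 5055 gene names were called, 26.3% of those tested: 2244 were higher at 20 h (11.7%) and 2811 lower (14.6%). Without saline library 1 the count was 6231 (32.5%), with 2883 higher (15.0%) and 3348 lower (17.4%). Both fits called 4742 of them, every one in the same direction, while 313 were called only with the library and 1489 only without it. When LPS mouse 4 was left out too, 7468 were called (38.9%; 3443 higher, 17.9%, and 4025 lower, 21.0%). Changes of at least 8-fold were found in 209 higher and 144 lower genes with all arrays, and in 321 and 201 without saline library 1. All 6 LPS mice lay apart from all 6 saline mice, without overlap, for 736 genes (3.83%), and apart from the other 5 saline mice for 2536 (13.2%). The balance of higher and lower depends on the centring: with each array centred on its median, 2762 were higher and 1972 lower, and the median change of all genes moved from −0.09 to 0.06. Within the 3 scan dates, each with 2 saline and 2 LPS mice, 4448, 394 and 0 genes were called by limma (the last with 1275 at an unadjusted p under 0.05). LPS mouse 4 is in the second of these dates and saline library 1 in the third, and the cause of the lower counts was not tested. With slide as a block the count was 5540. The counts within gene lists below stand against the shares of all genes, 11.7% higher and 14.6% lower (15.0% and 17.4% without saline library 1).

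Some of the promoters of these genes are shown first, since several gene groups below share short motifs. Each run is the 200 bases before the transcription start in RefSeq on GRCm38.p6, read 5′ to 3′ along the gene, with the matched motif in capitals. Cxcl1 and Il6 hold a kappaB motif, GGGANTTTC, which NF-kB can bind, 71 and 44 bases before the start, and Cxcl9 holds it on the opposite strand.
Cxcl1 (chr5:90891045-90891244, plus strand): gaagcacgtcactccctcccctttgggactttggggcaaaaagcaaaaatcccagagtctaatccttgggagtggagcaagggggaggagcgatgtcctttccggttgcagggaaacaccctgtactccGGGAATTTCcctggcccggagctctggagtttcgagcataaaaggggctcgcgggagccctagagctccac
Il6 (chr5:30012914-30013113, plus strand): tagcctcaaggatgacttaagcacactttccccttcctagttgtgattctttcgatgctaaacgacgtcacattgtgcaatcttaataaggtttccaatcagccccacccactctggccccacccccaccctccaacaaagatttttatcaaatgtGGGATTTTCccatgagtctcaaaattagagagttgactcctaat
Cxcl9 (chr5:92328080-92328279, minus strand): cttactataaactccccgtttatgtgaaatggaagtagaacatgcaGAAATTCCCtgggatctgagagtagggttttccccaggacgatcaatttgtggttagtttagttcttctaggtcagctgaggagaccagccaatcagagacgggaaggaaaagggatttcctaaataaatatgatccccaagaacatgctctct
Isg15 and Oas1a hold overlapping copies of GAAANNGAA, the repeat of elements bound by interferon-activated factors, 3 in Isg15 and 2 in Oas1a.
Isg15 (chr4:156200819-156201018, minus strand): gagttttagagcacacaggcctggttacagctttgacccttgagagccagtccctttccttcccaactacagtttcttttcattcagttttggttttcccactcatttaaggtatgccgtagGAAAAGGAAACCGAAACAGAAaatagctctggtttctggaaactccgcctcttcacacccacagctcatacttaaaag
Oas1a (chr5:120907526-120907725, minus strand): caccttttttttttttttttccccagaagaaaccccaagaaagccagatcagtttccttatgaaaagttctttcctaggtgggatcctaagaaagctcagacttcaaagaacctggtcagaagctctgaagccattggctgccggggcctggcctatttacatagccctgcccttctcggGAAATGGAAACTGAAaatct
Socs3 holds TTCNNNGAA, the spacing bound by STAT factors, 154 bases before its start, and Mcm6 holds 3 matches of TTTNNCGC, the core of E2F sites, 2 of which overlap on opposite strands.
Socs3 (chr11:117969367-117969566, minus strand): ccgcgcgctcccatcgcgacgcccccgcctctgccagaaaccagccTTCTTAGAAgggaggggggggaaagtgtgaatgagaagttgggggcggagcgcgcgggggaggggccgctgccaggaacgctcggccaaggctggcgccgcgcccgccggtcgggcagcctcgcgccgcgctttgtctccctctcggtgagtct
Mcm6 (chr1:128359706-128359905, minus strand): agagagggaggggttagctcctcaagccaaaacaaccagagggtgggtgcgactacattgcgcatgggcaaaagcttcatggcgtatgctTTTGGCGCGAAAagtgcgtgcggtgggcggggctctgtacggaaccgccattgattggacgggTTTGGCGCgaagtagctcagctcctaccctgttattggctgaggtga
All motifs were searched on both strands in windows of 250 bases before to 50 after each start, and a gene counted if any of its starts matched. GGGANTTTC was found in 1.29% of 27025 genes with a promoter entry, in 3 of the 16 chemokine genes matched (18.8%), in 3 of 14 cytokine genes (21.4%), in 15 of the 229 matched genes that were at least 8-fold higher without saline library 1 (6.55%) and in 1 of the 137 at least 8-fold lower (0.730%). It stood in 15.4% of the Toll-like receptor list and 11.1% of neutrophil genes. None of the matched acute-phase, cytokine brake, interferon-stimulated, G1/S and steroid dehydrogenase genes held it. For GAAANNGAA the shares were 9.76% of all genes with an entry and 62.5% (15 of 24) of interferon-stimulated genes. TTCNNNGAA stood in 9.55% of all genes with an entry, in 7 of 25 acute-phase genes and in 4 of 12 genes for cytokine brakes (33.3%). TTTNNCGC stood in 5.93% of all and in 13 of 28 G1/S genes (46.4%). That G1/S list was made of genes known as E2F targets, so its share was in part set by the choice. Motifs were also found in other lists: TTCNNNGAA in 23.1% of the Toll-like receptor list and 29.2% of the interferon-stimulated one, and GAAANNGAA in 31.2% of chemokines and 27.3% of steroid dehydrogenases, a list that fell. In the genes at least 8-fold higher and lower the other motifs differed less: TTCNNNGAA 14.4% and 10.2%, GAAANNGAA 16.2% and 11.7%, TTTNNCGC 3.49% and 4.38%. These shares describe letters in a window and were not tested.

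Acute-phase proteins and Reg3 lectins were among the largest rises. Of 29 measured genes for acute-phase proteins known to rise, 22 rose and none fell, with all arrays and without saline library 1 alike. This list was chosen for that direction, and proteins known to fall are given further below. The median change was 1.95 with all arrays and 2.47 without saline library 1, where the median of all genes was −0.09 and −0.06. The mean level of the 29 genes lay between 4.48 and 5.82 in the other 5 saline mice and at 8.10 in saline library 1. At 20 h it lay between 7.33 (mouse 4) and 8.45, so the groups overlap only through that library. Reg3b, an antibacterial lectin of the gut and injured pancreas, was not well above background in the other 5 saline mice (−7.80 to −5.69, median −6.68), stood at 5.47 in saline library 1, and reached 3.82 to 7.71 (median 5.85) at 20 h. It rose by 10.46 ± 1.46 (adjusted p = 1.16e-05) with all arrays and by 12.49 ± 0.90 without saline library 1, at least 1384-fold against the background of those 5 arrays. Of 12 genes for Reg lectins and pancreatic acinar proteins 3 rose and 1 fell. The relatives Reg3g and Reg3a, rose by 9.69 and 4.87 (11.22 and 5.69 without saline library 1). Such a lower bound sets the mean of the bright group against the lowest signal that stood well above background on each array of the dim group.

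A2m, the protease trap alpha-2-macroglobulin, ran from −7.53 to −4.04 in the other 5 saline mice, was 4.06 in saline library 1 and lay between 3.35 and 5.77 at 20 h (median 5.21). Its change was 9.36 ± 1.48 (adjusted p = 3.96e-05; 11.06 without saline library 1), with 2 of 6 saline arrays well above background, and its second probe gave 4.35. Lcn2, which withholds iron from bacteria by binding their siderophores, rose from a median of −1.38 (range −2.98 to 2.16) to 8.15 (7.65 to 9.89), and saline library 1 had 7.70. That was a change of 7.64 ± 1.16 (adjusted p = 2.59e-05), and of 9.04 without saline library 1. The metallothionein Mt2 rose by 4.81 (adjusted p = 0.00181), and it was spread widely in saline, from −0.31 to 7.78 in the other 5 mice, with saline library 1 at 10.40. Saa1, serum amyloid A, was high already in several saline livers (4.87 to 8.32, and 11.23 in library 1) and read 9.54 to 10.48 at 20 h: it rose 6.28-fold with all arrays (adjusted p = 0.00507) and 10.8-fold without that library. On 4 of 6 LPS arrays and in saline library 1 its raw signal was at 95% or more of the scanner's saturation value, so neither the fold nor the narrow range at 20 h is exact.

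LPS sensing genes were next. Of 35 genes of the Toll-like receptor and NF-kB pathway 9 rose and 1 fell with all arrays, and 18 rose and 1 fell without saline library 1 (medians 0.74 and 1.12). Cd14, the LPS co-receptor, separated the groups except for saline library 1 (6.19): the other 5 saline mice lay between −1.36 and −0.06, 5 of the LPS mice between 7.13 and 8.56, and LPS mouse 4 between those ranges. It rose 116-fold (log2 6.86 ± 1.07, adjusted p = 3.43e-05), and 262-fold without saline library 1. The NF-kB brakes differed in how firmly they were called: Tnfaip3 (A20) rose by 3.08 ± 1.01 (adjusted p = 0.0235), but lost the call when any of saline mice 2, 5 and 6 or LPS mouse 6 was left out (lowest change 2.38, highest adjusted p 0.0798), while Nfkbia, the inhibitor IkB-alpha, had 1.36 ± 0.58 (adjusted p = 0.0812) and 1.95 without saline library 1 (adjusted p = 0.0034).

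Of 20 cytokine genes 8 rose and 1 fell (13 and 1 without saline library 1), with a median of 1.11 and 1.44. Il6, the inducer of the acute phase, rose by 3.58 ± 0.83 (adjusted p = 0.00213): 5 LPS mice sat between −0.23 and 0.05 and mouse 4 at −2.19, above the −5.95 to −3.80 of the other 5 saline mice, and saline library 1 at 0.98. The macrophage cytokines Tnf and Il1b were called only without saline library 1. Tnf read 0.73 in that library and −3.23 to −1.65 at 20 h, so that LPS mice lay below it but above the −6.03 to −4.37 of the other 5. With all arrays its change was 1.86 ± 0.85 (adjusted p = 0.106) and without the library 2.85 ± 0.66 (adjusted p = 0.00167), with 2 of 6 saline arrays well above background. Il1b behaved alike, at 4.39 in saline library 1, −1.51 to −1.11 in the other 5 and 0.52 to 2.68 at 20 h (1.86, adjusted p = 0.0912, and 2.81, adjusted p = 0.00126). LPS mouse 4 held the highest Tnf and Il1b levels of the 6. Among the antagonists, Il1rn, which blocks the IL-1 receptor, rose by 6.19 ± 1.16 and Il10 by 2.68 ± 0.60 (7.55 and 3.33 without saline library 1). Csf3, the granulocyte growth factor, was divided: −5.73 in LPS mouse 4, within the −7.60 to −4.60 of the other 5 saline mice, 1.59 in saline library 1, and 0.07 to 2.95 in the other 5 (change 4.91 ± 1.38, adjusted p = 0.00883).

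Chemokines, which draw leukocytes in, rose in 13 of 25 genes and fell in 1 (18 and 2 without saline library 1; medians 2.27 and 3.24). Cxcl9, an interferon-gamma-induced attractant of T cells, rose from −0.53 to 1.84 in the other 5 saline mice to 6.57 to 8.22 (5.11 ± 0.92, adjusted p = 0.000185), with saline library 1 at 8.06. The monocyte attractant Ccl2 rose by 5.18 ± 1.25 and Ccl3 by 4.09 ± 1.25 (adjusted p = 0.0159; 0.0505 when saline mouse 6 was left out). Cxcl5, a neutrophil attractant, was −4.71 in LPS mouse 4, −1.04 in mouse 6 and 0.85 to 1.20 in the other 4, and rose by 5.29 ± 1.22. Cxcl1, its relative, spread over 2.24 to 7.20 at 20 h and −1.97 to 1.18 in the other 5 saline mice (2.93 ± 1.16, adjusted p = 0.0607; 4.15, adjusted p = 0.00178 without saline library 1, which had 7.10). Of 14 genes that brake cytokine signalling 6 rose (7 without saline library 1); Socs3, the feedback inhibitor of STAT3 signalling whose promoter is printed above, rose by 3.12 ± 0.82, with LPS mouse 4 at 3.45 against 6.54 at the top of the group. Irg1, the itaconate-producing enzyme of activated macrophages, rose by 5.31 ± 1.27 and lay in each LPS mouse between 1.94 and 3.29.

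Interferon-stimulated antiviral genes rose in few members with all arrays and in most without saline library 1. With all arrays 9 of 32 rose, and without that library 27 of 32, with none falling in either fit (medians 1.52 and 2.39). The mean level of the list was 1.43 to 3.72 at 20 h, between the −0.39 to 0.23 of the other 5 saline mice and the 4.68 of saline library 1. Irf7, the factor that amplifies the interferon response, rose by 3.47 ± 0.72 (adjusted p = 0.000715; saline −0.85 to 0.24, 20 h 3.52 to 4.98, library 1 at 4.88). Oas1a and Oas3, sensors of double-stranded RNA, rose by 3.10 and 3.19, and Isg15, the ubiquitin-like modifier whose promoter carries 3 overlapping motif copies, by 3.28 ± 1.03 (adjusted p = 0.0187, and 0.0506 without saline mouse 6). Every LPS mouse had Isg15 between 3.74 and 7.08, above the 1.20 that was the highest of the other 5 saline mice. Of 12 guanylate-binding and immunity-related GTPases, induced by interferon gamma, 6 rose (11 without saline library 1), with Gbp2 at 4.99 (adjusted p = 0.00129) and Gbp4 at 3.36 ± 0.80.

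Antigen presentation genes were taken by class. Of 29 genes of the proteasome and of MHC class I loading 15 rose and none fell (20 and none without saline library 1), with medians of 0.81 and 0.83. Psmb8, a catalytic subunit of the immunoproteasome, rose from 2.41 to 3.21 in the other 5 saline mice to 5.22 to 5.89, and saline library 1 had 5.58 (2.14 ± 0.44, adjusted p = 0.000632). Tapbp, the bridge between the peptide transporter and class I molecules, rose by 1.77 ± 0.33, and Tap1, the transporter itself, by 1.76 ± 0.61 (adjusted p = 0.0333), a call lost when any of saline mice 2 to 6 or LPS mice 1, 3, 5 and 6 was left out (adjusted p up to 0.0803). Of 9 MHC class II genes 3 fell and none rose, where 14.6% of all genes fell. H2-Eb1 fell by 1.44 ± 0.35 (adjusted p = 0.00308) and Ciita, the master regulator of class II genes, by 2.09 ± 0.44; LPS mouse 4 kept H2-Eb1 at 1.88 and Ciita at −1.15, the highest of the 6.

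Neutrophil genes rose in most members. Of 30 genes 25 rose and none fell (26 and none without saline library 1), with medians of 3.56 and 4.36, the highest of the 53 lists in both. With normexp background correction the median was 1.51, below the 2.02 of acute-phase genes. The 6 LPS mice had mean levels of −0.31 to 0.66, LPS mouse 4 (−0.05) included, against −4.39 to −4.04 in the other 5 saline mice and 0.74 in saline library 1. Within the 3 scan dates the median change was 4.52, 4.19 and 1.93. Ngp, a granule protein of neutrophil precursors, was not well above background in the other 5 saline mice (median −6.99) and lay between −1.59 and 1.79 at 20 h, at least 44.3-fold higher without saline library 1 (log2 7.67; 6.40 ± 1.02 with all arrays). The chitinase-like Chi3l1 rose by 6.41 ± 1.05 and the decoy IL-1 receptor Il1r2 by 5.79 ± 0.97. Of 35 monocyte and macrophage activation genes 18 rose and 4 fell (21 and 4 without saline library 1): Ch25h, which makes 25-hydroxycholesterol, rose by 5.98 ± 1.17 and Slfn4 by 4.65 ± 1.12, the latter not well above background in any of the other 5 saline mice.

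Of 23 T and NK cell genes 5 rose and 1 fell, 6 of 23 in all, near the 26.3% of all genes (7 and 2 without saline library 1). The list had medians of 0.10 and 0.40, and the T and NK cell genes named next are some that rose. Trat1, an adaptor of the T cell receptor, was at −7.53 to −5.98 in the other 5 saline mice and −2.18 in saline library 1, and rose to 2.08 to 3.71 in 5 LPS mice and −0.99 in mouse 4. Its change was 8.08 ± 0.82 (adjusted p = 7.03e-07), and without saline library 1 it was at least 114-fold higher. A second probe gave 5.21. Cd28, the T cell co-stimulator, was dim on all 6 saline arrays and at least 6.00-fold higher (log2 4.25 ± 0.75), with 5 of 6 LPS arrays well above background. The granzymes Gzmb and Gzma, killing proteases of cytotoxic lymphocytes, rose by 3.09 ± 0.67 and 2.14 ± 0.39. Of 13 B cell markers 6 fell and 1 rose. The surface antigen Ms4a1 (CD20) fell by 1.73 ± 0.52, while LPS mouse 4 had −0.80, above all the saline mice.

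Growth arrest and stress genes followed. Of 38 p53 target and apoptosis genes 14 rose and 1 fell (23 and 2 without saline library 1; medians 0.75 and 1.14). Cdkn1a, the p21 inhibitor of cyclin-dependent kinases, rose 15.8-fold (log2 3.98 ± 0.77, adjusted p = 0.000396), from −3.07 to 0.36 in the other 5 saline mice to 2.84 to 4.41 in 5 LPS mice and 1.31 in mouse 4. Gadd45g, another growth-arrest gene, rose by 3.15 ± 0.64 and Casp4, the caspase that detects LPS inside cells, by 2.68 ± 0.66. Of 20 immediate early genes 7 rose and 1 fell with all arrays, and 13 and 1 without saline library 1 (medians 1.32 and 1.88). LPS mouse 4 had a mean of −0.02 for these, apart from the 1.31 to 2.06 of the other 5 and near the −0.45 to −0.23 of the other 5 saline mice, while saline library 1 had 2.21. Of 32 genes of the unfolded protein and integrated stress response 5 rose and none fell (11 rose without saline library 1). Of all genes 11.7% and 15.0% rose in these fits, and the list had medians of 0.36 and 0.47. Ddit3 (CHOP) rose by 1.58 ± 0.44 and the stress cofactor Nupr1 by 2.55 ± 0.58.

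The urokinase receptor Plaur rose by 4.30 ± 0.84. Of 33 endothelial activation and vessel genes 14 rose and 5 fell (16 and 6 without saline library 1), with the adhesion molecules Icam1 at 3.11 ± 0.73 and Selp at 2.20 ± 0.67. Selp shows mouse 4 again, at −1.59 beside 1.15 for the median of the group. Vegfa, the vascular growth factor, had a change of −0.32 ± 0.29 (adjusted p = 0.449) and −0.07 without saline library 1.

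**Figure D2:**
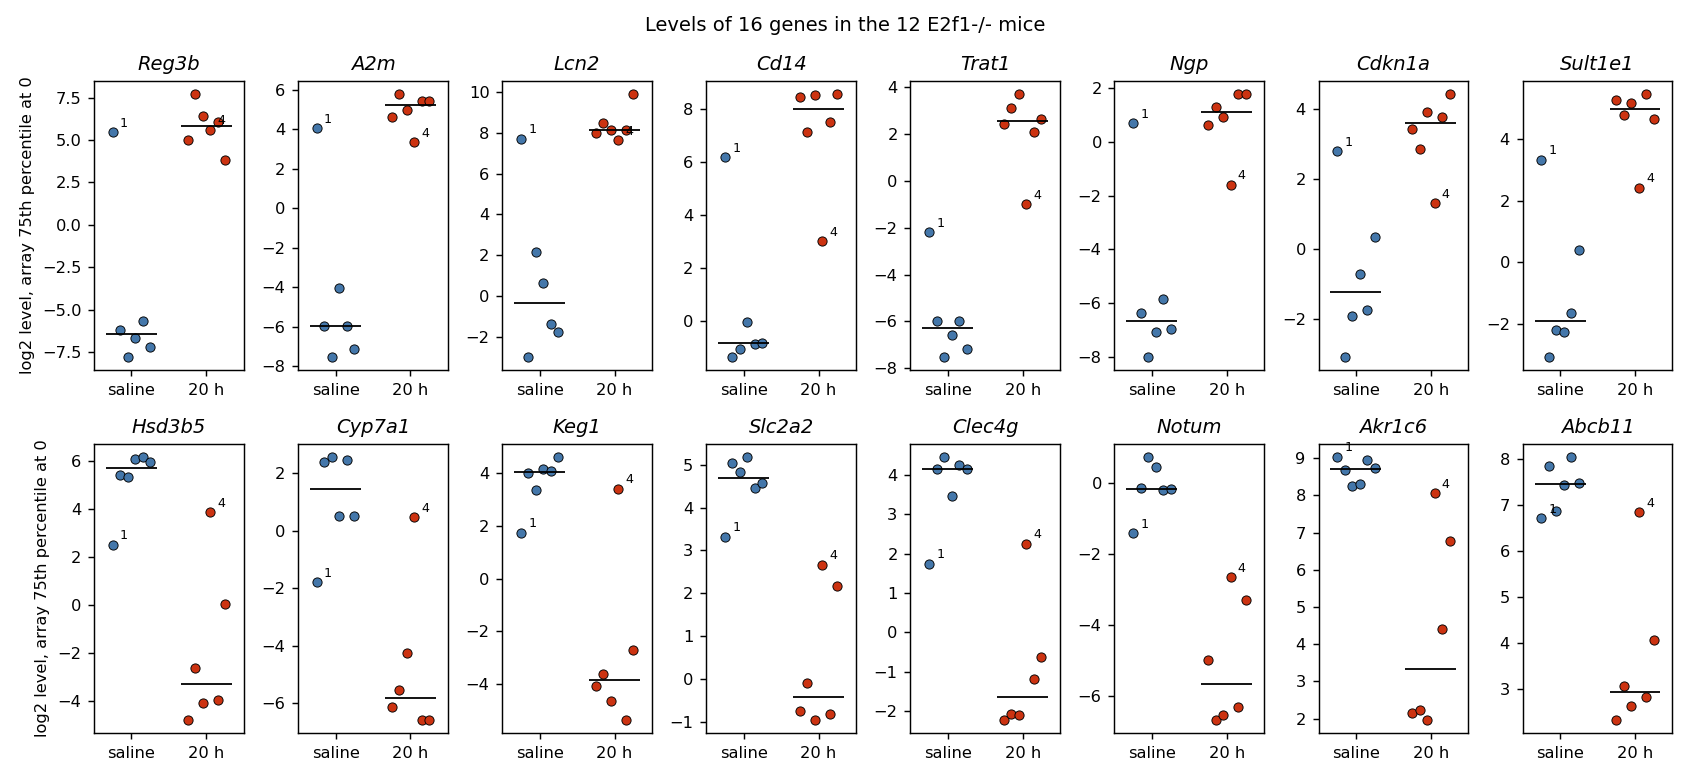
Levels of 16 genes (y axis, log2 signal with the array's 75th percentile at 0) in each knockout mouse on saline and at 20 h of LPS, 1 point per mouse, with saline library 1 and LPS mouse 4 numbered and a line at each group's median. For Reg3b, saline library 1 (5.47) lies with the LPS mice (3.82 to 7.71), and for Hsd3b5, LPS mouse 4 (3.86) lies beside the saline mice.

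Genes of bile acid transport and synthesis fell. Of 16 bile acid and organic anion transporters 12 fell and 1 rose in both fits, with medians of −1.80 and −2.03 and −2.16, −1.86 and −1.74 within the 3 scan dates. Abcb11, the canalicular bile salt export pump, stood at 6.72 in saline library 1 and 6.87 to 8.05 in the other 5, and at 20 h at 6.85 in mouse 4, 4.07 in mouse 6 and 2.32 to 3.07 in the other 4. It fell by 3.78 ± 0.50 (adjusted p = 6.91e-06), 13.8-fold. Slco1b2, a sinusoidal uptake carrier, showed the same order: 7.34 to 7.77 in all 6 saline mice, 7.41 in LPS mouse 4, 5.53 in mouse 6 and 2.39 to 3.55 in the rest (−3.26 ± 0.53). Slco1a4 fell by 3.26 ± 0.44. The 1 transporter that rose was Ostb, which exports bile acids back to blood, by 3.31 ± 0.73; it stayed at −2.30 in LPS mouse 4. Of 16 bile acid synthesis genes 8 fell and none rose (10 without saline library 1). Cyp7a1, which sets the rate of bile acid production from cholesterol, dropped to −6.59 to −4.25 in 5 LPS mice while mouse 4 read 0.47, just below the 0.50 to 2.57 of the other 5 saline mice, and saline library 1 was at −1.79. With 2 of 6 LPS arrays well above background the change of −5.89 ± 1.24 (adjusted p = 0.000874) is not exact in size, and a second probe gave −4.53. Akr1d1, which reduces bile acid intermediates, fell by 3.65 ± 0.67, with 2 of 6 LPS arrays well above background.

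Of 24 steroid dehydrogenases and reductases 20 fell and none rose in both fits (medians −2.39 and −2.44, the lowest of the 53 lists in both; −2.97, −1.95 and −2.11 within the scan dates). With normexp background correction their median was −1.49, above the −1.73 of bile acid and anion transporters. Their mean level was 3.26 to 3.76 in the other 5 saline mice, 2.87 in saline library 1, −0.12 to 1.85 in 5 LPS mice and 2.80 in mouse 4. Hsd3b5, a hepatic 3-ketosteroid reductase of the male mouse liver, was at 5.33 to 6.17 in the other 5 saline mice and 2.51 in library 1; at 20 h it lay between −4.79 and −2.65 in 4 mice, at 0.04 in mouse 6 and at 3.86 in mouse 4. It fell by 7.17 ± 0.96 (adjusted p = 7.36e-06), 144-fold, and 211-fold without saline library 1. Hsd3b4, Hsd3b2 and Hsd3b3 fell by 5.91, 5.88 and 4.94, the last with 2 of 6 LPS arrays well above background; these are close relatives whose probes may share signal. Keg1, an acyltransferase-like gene kept in the growth hormone list, fell by 6.50 ± 0.91. Akr1c6, a hydroxysteroid dehydrogenase of the steroid list, fell by 4.39 ± 0.70, from 8.25 to 9.04 in all 6 saline mice to 1.97 to 4.42 in 4 LPS mice, with mouse 6 at 6.78 and mouse 4 at 8.06.

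Drug metabolism genes fell widely. Of 40 cytochrome P450 genes of families 1 to 4, 29 fell and 2 rose (30 and 2 without saline library 1; medians −1.51 and −1.64), and of 33 conjugating enzymes 28 fell and 2 rose in both fits (medians −1.73 and −1.76). The mean level of the P450 list was 4.50 in saline library 1, next to the 4.52 to 4.77 of the other 5 saline mice. At 20 h it was 2.54 to 4.00, below all 6 saline mice. Cyp3a25 fell by 3.42 ± 0.48 (adjusted p = 1.13e-05), with LPS mice 4 and 6 at 4.28 and 4.27 and the other 4 between 0.78 and 1.75. Cyp2c29 fell by 2.02 ± 0.31 and Cyp2a4 by 3.10 ± 0.59. Gsta1, a glutathione transferase, fell by 3.06 ± 0.47. Against them Sult1e1, the oestrogen sulfotransferase, rose by 5.55 ± 0.80 (adjusted p = 1.6e-05), from −3.09 to 0.41 in the other 5 saline mice to 2.43 to 5.47, with saline library 1 at 3.34. Aox3, the aldehyde oxidase, fell by 5.02 ± 0.73. Of 21 nuclear receptors of xenobiotics and lipids, which control many of these enzymes, 7 fell and none rose.

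Outside these lists, Lgr5 and Notum, targets of Wnt signals near the central vein, fell by 4.64 ± 0.90 and 4.95 ± 0.59 (5.36 and 5.21 without saline library 1), with 2 and 3 of 6 LPS arrays well above background. Slc40a1, the iron exporter of macrophages and hepatocytes, fell by 3.44 ± 0.79. Saline library 1 had Lgr5 at −4.44 and Slc40a1 at 0.92, below the other 5 saline mice. LPS mouse 4 kept Lgr5 at −0.57 and Slc40a1 at 3.94, while the other 5 lay between −7.81 and −5.06 and between −3.04 and 0.75.

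Nitrogen metabolism followed. Of 44 genes for the urea cycle and amino acid breakdown, 28 fell and 3 rose (30 and 5 without saline library 1; medians −1.27 and −1.55). Cps1, the first enzyme of the urea cycle, fell from 6.91 to 8.27 in the 6 saline mice to 4.48 to 6.69 (−2.14 ± 0.31, adjusted p = 1.68e-05). Agxt2l1, a phospholyase of phosphoethanolamine, fell by 4.77 ± 0.70. Sdsl, a serine dehydratase-like enzyme, rose by 3.67 ± 0.38 (adjusted p = 7.03e-07), to 5.29 to 7.07 from 2.15 to 2.73 in the other 5 saline mice and 4.78 in saline library 1; its 6 and 6 mice did not overlap. Car5a, the mitochondrial carbonic anhydrase that feeds bicarbonate to these pathways, fell by 4.37 ± 0.78.

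In the lists of glucose and lipid genes more members fell than rose. Of all genes 11.7% rose and 14.6% fell (15.0% and 17.4% without saline library 1). Of 32 genes of glucose handling 4 rose and 13 fell (8 and 13 without saline library 1). Slc2a2, the GLUT2 transporter, fell 18.3-fold (adjusted p = 3.4e-06). Pdk4, which shuts pyruvate out of oxidation, rose by 3.68 ± 0.91, but with values from −0.49 in LPS mouse 4 and 1.54 in mouse 2 to 7.18 in mouse 6 it was widely spread. Of 25 cholesterol synthesis genes 8 fell and none rose with all arrays, 14 without saline library 1 and 18 without LPS mouse 4 as well (medians −0.65, −0.92 and −1.13). Both libraries sit across this list: saline library 1 had a mean level of 2.76, below the 4.17 to 4.83 of the other 5, and LPS mouse 4 one of 4.68, above the 3.21 to 3.69 of the other 5. Ebp and Sc5d, late enzymes of the pathway, fell by 1.22 ± 0.30 and 1.43 ± 0.37. Of 32 fatty acid and triglyceride synthesis genes 14 fell and 6 rose (16 and 5 without saline library 1); the elongase Elovl6 fell by 3.59 ± 0.40, and Cidec, which enlarges lipid droplets, rose by 4.38 ± 0.80, from 4.45 to 7.10 in 5 LPS mice but 0.10 in mouse 4. Of 38 genes of fatty acid oxidation 11 fell and 4 rose, and that share of rises was near the 11.7% of all genes. Of 42 oxidative phosphorylation genes 14 fell and none rose (11 without saline library 1), by small amounts: Ndufs1 of complex I fell by 0.77 ± 0.14 and Sdha of complex II by 1.05 ± 0.19. Catalase (Cat) fell by 2.79 ± 0.38, one of 10 among 28 antioxidant genes that fell while 2 rose (10 and 3 without saline library 1).

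Secreted plasma proteins outside the acute phase fell in part. The counts here stand beside the 11.7% of all genes that rose and the 14.6% that fell (15.0% and 17.4% without saline library 1). Of 18 proteins known to fall in the acute phase 9 fell and none rose, 8 and 1 without saline library 1. Ttr, transthyretin, fell by 2.47 ± 0.47 (adjusted p = 0.000314) with LPS mouse 4 at 4.91, inside the saline range of 4.69 to 5.58, and Rbp4, the retinol carrier, by 1.34 ± 0.32. Alb, serum albumin, had a change of −0.23 ± 0.24 (adjusted p = 0.522), but its raw signal was at 95% or more of the scanner's saturation value on 5 saline and 4 LPS arrays, so a change could not be read there. Of 28 complement genes 9 fell and 2 rose (11 and 4 without saline library 1), of 31 coagulation and fibrinolysis genes 12 fell and 8 rose, and of 21 apolipoprotein genes 6 fell and 2 rose (9 and 2 without saline library 1). Klkb1, plasma prekallikrein, fell by 3.82 ± 0.51. Igfals, which holds IGF1 in the circulation, fell by 2.75 ± 0.50. Igfbp1 rose by 2.40 ± 0.81 (adjusted p = 0.0285). That call was lost when any of saline mice 2 to 6 or any LPS mouse but mouse 4 was left out (adjusted p up to 0.0713). LPS mouse 4 was at 5.19, with the saline mice, and saline library 1 at 10.51, above all LPS mice. On 1 of 6 LPS arrays the raw signal of Igfbp1 was at 95% or more of the scanner's saturation value, so that ranking is not exact. Of 17 iron genes 3 rose and 4 fell with all arrays, and 6 rose and 4 fell without saline library 1, with Hamp2, a hepcidin, down by 3.15 ± 0.58.

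Among the resident cells of the liver, Kupffer identity genes fell in 12 of 20 members, while 3 rose (11 and 4 without saline library 1; medians −0.97 in both fits). Vsig4, a complement receptor of Kupffer cells, fell by 3.91 ± 0.59 (adjusted p = 2.59e-05), Cd5l, a secreted macrophage protein, by 3.22 ± 0.50 and the haemoglobin scavenger Cd163 by 4.30 ± 0.93, with 4 of 6 LPS arrays well above background. The mean level of the list was −0.22 to 0.90 in 5 LPS mice, 1.89 in mouse 4 and 1.24 to 1.79 in all saline mice, saline library 1 (1.72) included. Sinusoidal endothelial genes fell in 8 of 23 members, while 1 rose (12 and 1 without saline library 1; 15 and 1 without LPS mouse 4 too). The C-type lectin Clec4g fell by 4.69 ± 0.59 (adjusted p = 3.76e-06; −1.95 in a second probe) and the VEGF receptor Kdr by 2.70 ± 0.84 (adjusted p = 0.0174; 0.0512 without LPS mouse 6). Kdr was at 2.24 in LPS mouse 4 and −2.14 in saline library 1, each in the range of the other group. Lyve1, a hyaluronan receptor of the sinusoids, was the member that rose, by 2.62 ± 0.54. Of 34 stellate cell and matrix genes 16 fell and 8 rose (16 and 9 without saline library 1): Colec11 fell by 3.74 ± 0.44, Lrat, which stores retinol, by 2.59 ± 0.75, and Col4a1, a basement membrane collagen, rose by 2.77 ± 0.46.

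**Figure D3:**
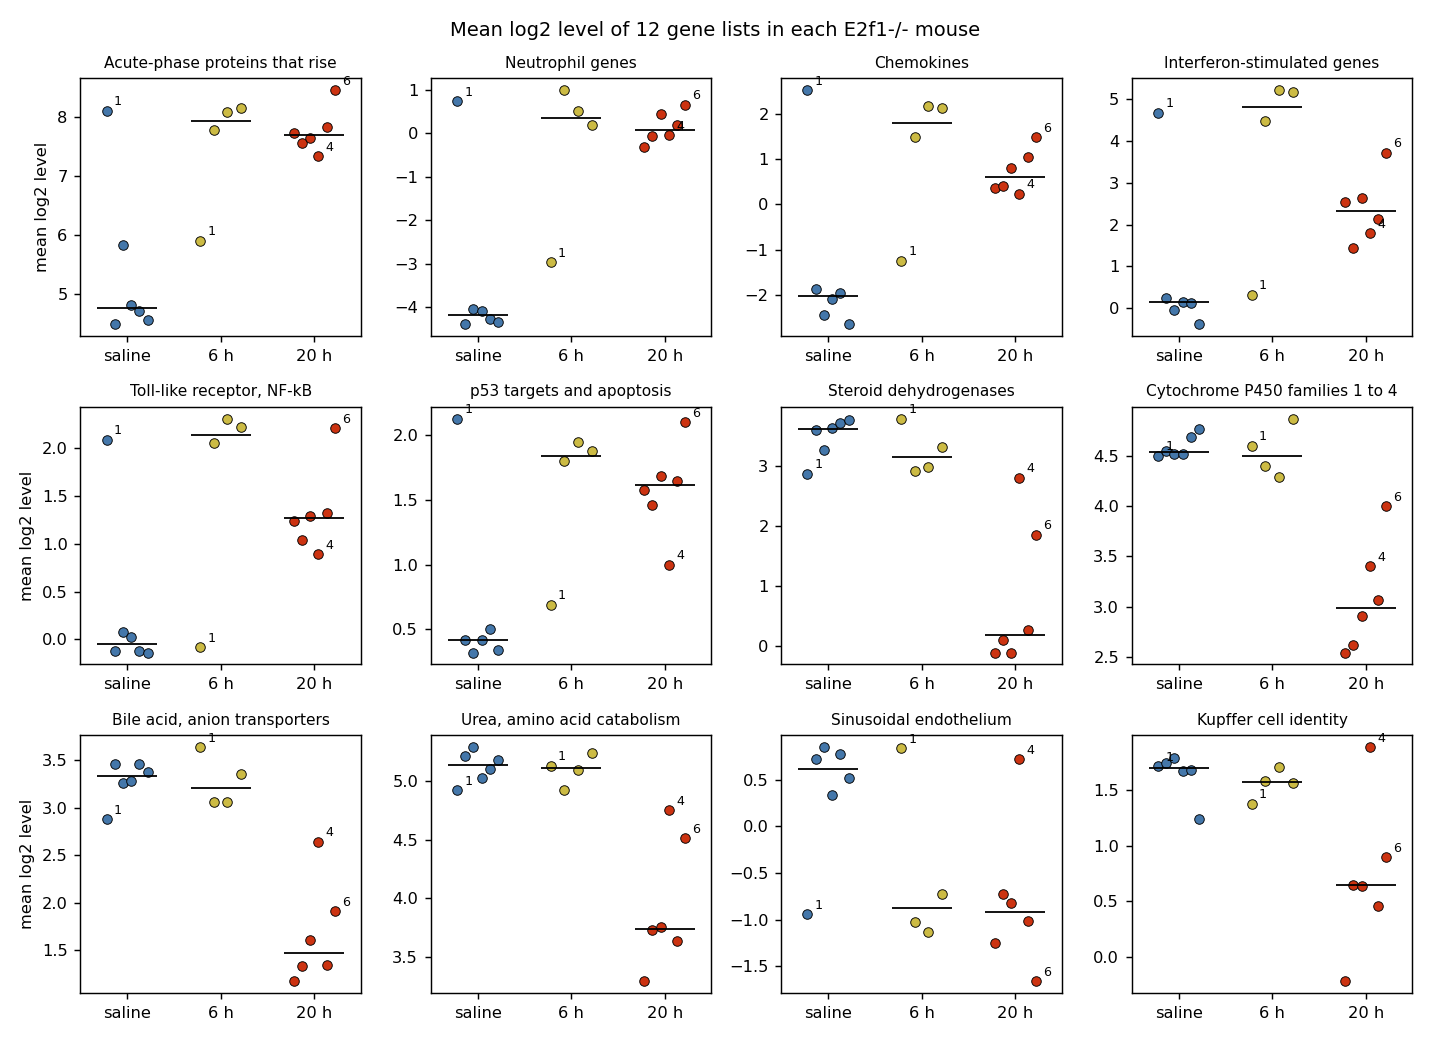
Mean level of 12 gene lists (y axis, log2 signal with the array's 75th percentile at 0, averaged over the genes of a list) in each knockout mouse on saline, at 6 h and at 20 h of LPS, 1 point per mouse, with saline library 1, 6 h mouse 1 and 20 h mice 4 and 6 numbered and a line at each group's median. Neutrophil genes are high in saline library 1 (0.74) and in all 6 LPS mice, while steroid dehydrogenases are low in 5 LPS mice and at 2.80 in mouse 4.

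Cell cycle and E2F genes, the group nearest to the missing factor, were set beside the shares of all genes. Of all genes 11.7% rose and 14.6% fell (15.0% and 17.4% without saline library 1). In the list of 37 G1/S genes known as E2F targets, where 13 of the 28 with a promoter entry held the motif searched, 4 rose while 6 fell (5 and 6 without saline library 1), with medians of 0.20 and 0.22, so the shares called were at or near those of all genes. The thymidine kinase Tk1 fell by 2.95 ± 0.51 (adjusted p = 0.00013), to −3.12 to −0.78 in 5 LPS mice and 1.53 in mouse 4, and Mcm10, a replication factor, by 2.84 ± 0.50. Mcm6, a subunit of the replicative helicase and owner of the E2F motifs printed above, rose by 1.64 ± 0.52 (adjusted p = 0.0208; up to 0.0565 when saline mouse 3, LPS mouse 1 or LPS mouse 3 was left out), from −0.60 to 1.09 on saline to 0.74 to 2.79. Of 28 G2/M genes 1 rose and none fell (2 and 1 without saline library 1). Of 23 genes of the E2F and retinoblastoma family 3 rose and 2 fell (3 and 4 without saline library 1); the repressors E2f7 and E2f8 rose by 1.58 ± 0.33 and 1.72 ± 0.51, with 1 and 5 of 6 saline arrays well above background. Ccnd1, cyclin D1, fell by 1.78 ± 0.58 (adjusted p = 0.0225; up to 0.0698 when saline mouse 3, LPS mouse 2 or LPS mouse 5 was left out).

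How far each LPS mouse moved was counted on genes chosen by the wild-type change, those called with at least a 2-fold change at 20 h. The knockout arrays entered that choice only through the shared spread of the fit, the background filter and the choice of probe. Of about 2070 such genes higher in wild type, LPS mice 1, 2, 3, 5 and 6 exceeded all 5 other knockout saline mice in 81.4% to 88.2%, and mouse 4 in 47.0%. Of about 2789 lower in wild type, those 5 mice fell below all 5 saline mice in 82.8% to 91.1% and mouse 4 in 38.4%. Saline library 1 reached 70.2% and 60.1% by the same measure. By list, mouse 4 had acute-phase (7.33), neutrophil (−0.05), monocyte (0.44) and proteasome (5.21) means at or near those of the other LPS mice, and Kupffer (1.89), sinusoidal (0.72), cholesterol (4.68) and MHC class II (1.40) means in or above the range of the other 5 saline mice.

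The knockout was then set against wild-type mice. The difference between the genotypes in the 20 h change was called for 8 genes of 19198 (0.0417%) with all arrays and for 9 without saline library 1 (0.0469%), with 1270 and 1252 at an unadjusted p under 0.05. Across genes, which are not independent replicates, the changes in knockout and wild type had a Pearson r of 0.864 with all arrays and 0.873 without saline library 1; the genotypes share no mice. Among the 53 gene lists only Adamts13, of the coagulation list, was called in this test, and none of the other genes described above was. The list medians differed in size: cholesterol synthesis genes had −0.65 and −0.92 in the knockout and −1.64 in wild type, where 21 of 25 fell, oxidative phosphorylation genes −0.52 and −0.45 against −0.79 (31 of 42 fell) and unfolded protein response genes 0.36 and 0.47 against 0.90 (19 of 32 rose). These differences in count are not tests, and the members' own tests of the difference were not called.

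**Figure D4:**
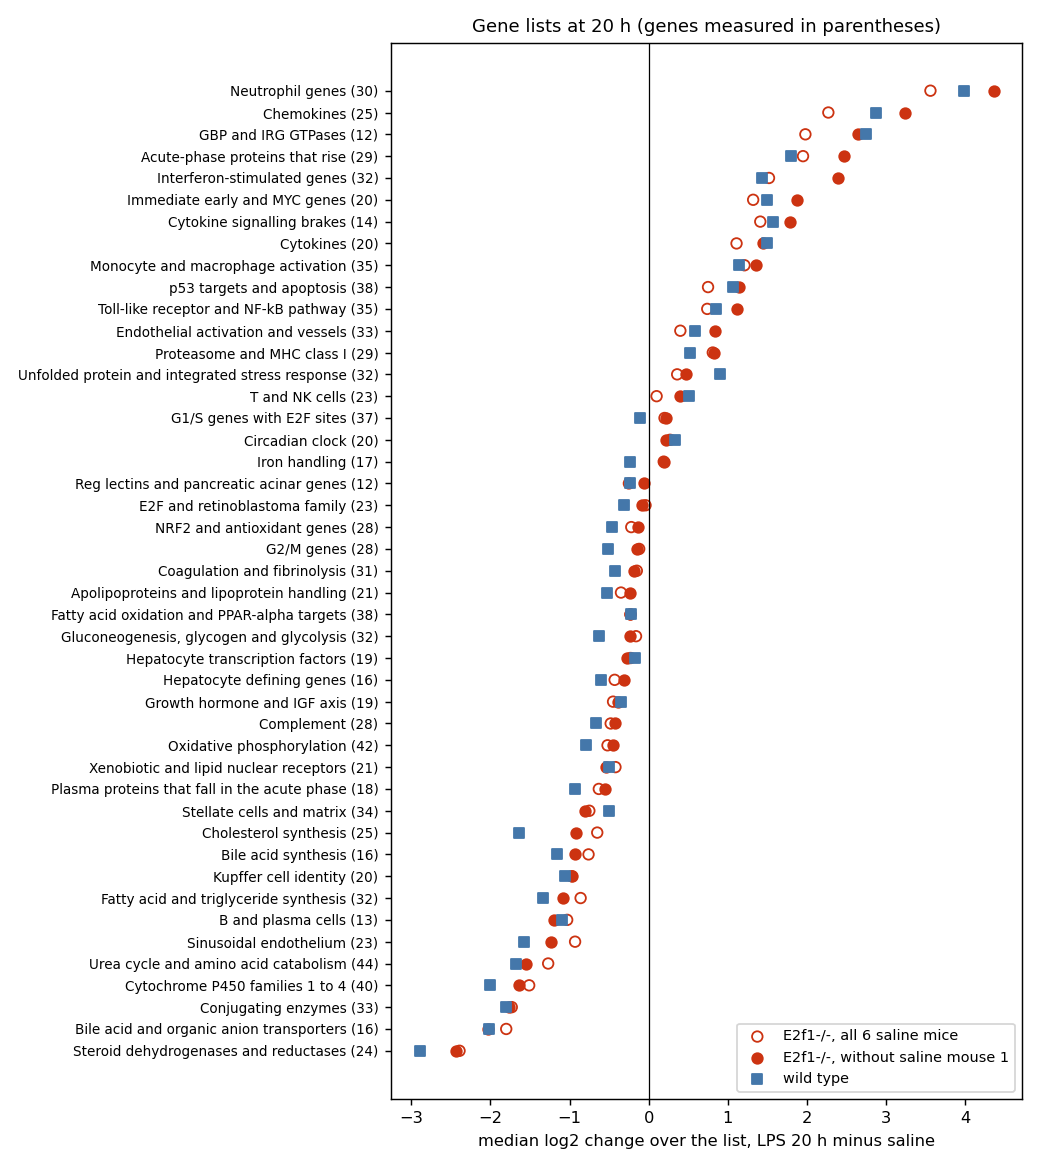
Median log2 change of gene lists, 20 h of LPS minus saline (x axis), 1 row per list, in the knockout with all arrays (open circles) and without saline library 1 (filled circles) and in wild type (squares). Neutrophil genes lie farthest right (3.56, 4.36 and 3.98) and steroid dehydrogenases farthest left (−2.39, −2.44 and −2.89), and cholesterol synthesis genes are lower in wild type (−1.64) than in the knockout (−0.92).

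For 4 of the 8 genes, Adamts13, Sorl1, Fras1 and C330011K17Rik, the genotypes were apart on saline and closer after LPS. Adamts13, the protease that cleaves von Willebrand factor, was at −1.93 ± 0.41 (SD, n = 6) in the knockout on saline, at −3.68 ± 0.56 after LPS, at −7.00 ± 0.99 in wild-type saline livers, where no array stood well above background, and −3.75 ± 0.84 in wild type at 20 h. The difference of the changes was −4.99 ± 0.75 SE (adjusted p = 0.00244). Sorl1, a sorting receptor (3.40 ± 0.49, adjusted p = 0.00217), and Fras1, an extracellular matrix protein (2.62 ± 0.43, adjusted p = 0.00565), had 5 wild-type saline arrays well above background each and at most 1 in any of the other 3 groups, so the size of either difference is not exact. Man2a2, a Golgi mannosidase, fell in both genotypes, by 0.73 ± 0.18 in the knockout and by 2.11 in wild type (difference 1.38 ± 0.26, adjusted p = 0.0352), whereas its other probes gave −0.46 to −0.01 in the knockout. The other 4 of the 8, C330011K17Rik among them, carry clone or accession names. With slide as a block only Adamts13 was called (adjusted p = 0.0269), and Sorl1, Fras1 and Man2a2 had 0.0911, 0.0877 and 0.0911. With quantile normalization Fras1 and Man2a2 were not called (0.0772 and 0.0714), and in the authors' deposited values Man2a2 was not (0.0602). A replicate block ended the call of Man2a2 too (0.0823). With normexp background correction the difference was −1.44 for Adamts13 and 0.62 for Sorl1, both called, and 0.64 for Fras1 (adjusted p = 0.231). Without saline library 1 Man2a2 was at an adjusted p of 0.0517. Without saline library 1 and LPS mouse 4 the count was 5, Adamts13, Sorl1 and Fras1 among them. Mogat1, a monoacylglycerol acyltransferase, changed by −1.71 ± 0.28 in the knockout and by 0.20 in wild type, and the difference was not called (adjusted p = 0.0714).

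Against knockout mice at 6 h of LPS, 2993 genes differed at 20 h (15.6%). Of these, 1391 were higher and 1602 lower, or 1821 and 1252 in the authors' deposited values. Without saline library 1 and 6 h mouse 1, 4292 of 19198 genes differed (22.4%), 2204 higher and 2088 lower. Leaving out 6 h mouse 3 or 4 gave 1873 and 1802. The 6 h group has 4 mice, and saline mice at 20 h serve both times, so changes from saline are set side by side without a comparison of them. Without both libraries, interferon-stimulated genes had a median change of 4.91 at 6 h and 2.39 at 20 h, and 26 of 32 were lower at 20 h than at 6 h with none higher (3 lower with all arrays). Neutrophil genes had 5.15 and 4.36 (3 of 30 lower, near the share of all genes, and none higher). Acute-phase genes had 2.53 and 2.47, with 1 higher and 1 lower.

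Several hepatocyte lists were lower at 20 h than at 6 h. P450 genes had a median of 0.06 at 6 h and −1.64 at 20 h, and 26 of 40 were lower at 20 h, 3 higher; steroid dehydrogenases had −0.47 and −2.44, and 19 of 24 were lower, 1 higher; transporters of bile acids and organic anions had −0.23 and −2.03, with 10 of 16 lower. The level of Akr1c6 was 8.34 to 9.04 in the 4 mice at 6 h. Cholesterol synthesis and sinusoidal genes were low already at 6 h (−1.11 and −1.70). Among single genes, without both libraries, Retnla, a resistin-like protein of alternatively activated macrophages, was 5.33 higher at 20 h than at 6 h, Olig1 5.24, the pyruvate dehydrogenase kinase Pdk4 4.81, Cda, cytidine deaminase, 4.38, and the small GTPase Rab30 3.87. Upp2, uridine phosphorylase, was lower by a change of −4.89, Hsd3b5 by −4.96 and Aox3 by −5.05. Olig1 was high in 5 LPS mice at 20 h (0.92 to 2.37) and at −5.65 in mouse 4, below every saline mouse (−3.77 to −3.05); Rab30 was at 0.57 in mouse 4 and 4.23 to 5.87 in the others.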

How the data were processed

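Liver RNA of 32 mice was labelled with Cy3 and hybridised to 1-colour Agilent arrays, 1 per mouse; per the file headers, spots were read with Agilent Feature Extraction 10.7.1.1. The files deposited by the authors give, for each spot, an intensity with the background already subtracted, per the file headers; that processed signal was used. The authors also deposited a table of log2 values, column medians 8.8 to 8.912, correlation with its own array 0.98 or more in all 32 columns, with a normalisation not given in the sources used here; it served as an alternative.

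Control spots and outlier spots were left out, leaving 43379 spots of 41174 probes. Log2 signals were averaged over the spots of a probe and scaled to each array's 75th percentile. A probe had to be well above background on 4 arrays or more, and a gene name was represented by its brightest such probe: 19198 names, 360 missing values, which limma drops gene by gene. One mean for each of 6 groups was estimated from the 32 arrays together, using limma 3.58.1 and R 4.3.3 (eBayes, two-sided, Benjamini-Hochberg). The script was tested on simulated data. The 12 knockout arrays lie on 3 scan dates with 2 saline and 2 LPS mice each, and the 32 arrays on 9 slides. Replicate numbers did not pair the mice: the correlation of deviations ran from −0.166 to 0.201.

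The arrays, the 53 gene lists and the comparisons were chosen with earlier results of these data known, saline library 1 included. Genes to name were set by rule: E2f1, a fixed panel, the largest changes with groups that do not overlap, up to 4 called members and the brightest uncalled member per list, and the extremes of the other comparisons. Lgr5, Notum, Mogat1 and Olig1 were picked from these, and some genes the rule picked are not reported here. Names are those of the array. Promoters are from RefSeq, GRCm38.p6. Alternatives concerned left-out arrays, blocks, scaling, background, filters, probes, weights and thresholds.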

Additional observations from a re-analysis of the deposited data

Results flagged for a closer look

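Single mice stood away from the rest of their group of 6 in several genes and lists. For 128 genes and 53 list means in the 2 knockout groups, the gap of the highest or lowest mouse to the next was set against the group's range. This picked out 120 of 362 groups (33.1%). The limit used would pick about 1 in 20 by chance for a group taken alone. The genes and lists here were read in the same mice, and the genes were chosen by rule. The chance rate is therefore no reference for the 33.1%, and whether that share exceeds chance was not tested.

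Saline library 1 was alone on the high side for 48 genes and 19 lists and on the low side for 12 genes and 4 lists. Saline mouse 2 was alone on the high side for 1 gene, and saline mouse 6 on the low side for 1 list, Kupffer identity. At 20 h of LPS, mouse 4 was alone on the low side for 17 genes and 1 list (immediate early genes) and on the high side for 6 genes and 4 lists (B cells, cholesterol synthesis, MHC class II and nuclear receptors). Mouse 6 was alone on the high side for 3 genes and 2 lists (Toll-like receptor genes, 2.21, and hepatocyte defining genes, 8.16) and on the low side for 1 gene. Mouse 3 was alone on the high side for 1 gene.

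The change at 20 h differed between knockout and wild type, as tested by the interaction term in limma, for 8 genes. Knockout minus wild type was 3.40 for Sorl1, 2.62 for Fras1 and 1.38 for Man2a2, and −4.99 for Adamts13. For the 4 genes with clone or accession names it was −4.93, −2.62, −1.49 and −1.39; in the first of these, C330011K17Rik, wild-type saline livers were low (−5.06 ± 0.88 SD, n = 6, 2 of 6 arrays well above background) and the means of the other groups lay between 0.07 and 0.41.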

How the results depend on the processing

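The 5055 genes called between 20 h of LPS and saline in the knockout became 4075 to 6455 when each mouse was left out in turn. The count was 3064 with only the 2 groups fitted, 394 and 0 within scan dates 2 and 3 (limma, 3468 and 1275 at an unadjusted p under 0.05), 7837 with array weights, 2887 at an adjusted p of 0.01, and, without saline library 1, 8372 with slide and 7663 with scan date as a block. With a replicate block it was 4726, and same-numbered mice did not deviate together. For the genotype difference (8 genes) it ranged from 4 to 14 over left-out mice: 14 without knockout LPS mouse 1, 5 without knockout saline mouse 2 or 4, and 4 without any one of knockout saline mice 3 and 6, knockout LPS mice 2 to 5, wild-type saline mice 1 to 3 or wild-type LPS mouse 5. It was 4 with the replicate block, 1 with slide as a block, 3 and 1 within scan dates 1 and 2, 4 with quantile normalization, 1 with the deposited values, 4 without a filter, 69 with array weights, 5 without saline library 1 and LPS mouse 4 and 4 at an adjusted p of 0.01; scan date 3 holds no wild-type saline mouse, so it gave no value. Against 6 h (2993 genes) it ranged from 1802 to 4014 over left-out mice; it was 2375 with the replicate block, 312 with only the groups compared, 1811, 1868 and 0 within the scan dates (1487 at an unadjusted p under 0.05 in the last), 6992 with array weights, 4292 without saline library 1 and 6 h mouse 1, 5103 without saline library 1, 6 h mouse 1 and LPS mouse 4, and 1383 at an adjusted p of 0.01. Of these, 1391 were higher and 1602 lower, and 1645 and 1353 with quantile normalization. Fewer mice enter the fits within dates and of the groups compared only; the cause of the other shifts was not tested.

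For 128 single genes followed, 3535 of 3832 values under alternatives kept direction and side of the threshold, 264 kept the direction and lost the call, 32 gained it, and 1 changed sign: Tnf within scan date 3, −0.35 (adjusted p = 0.975); the cause was not tested. Genes dim on some arrays of a group have changes of inexact size. Normexp background correction moved list medians by over 1.5 times, among others from 2.27 to 1.38 for chemokines, 1.11 to 0.41 for cytokines, 1.21 to 0.71 for monocyte genes, 1.32 to 0.87 for immediate early genes, −0.95 to −0.54 for MHC class II and −1.03 to −0.38 for B cells, besides the neutrophil and steroid lists.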
